A study of Mus musculus with 9 samples.

Results

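The IL-17 and G-CSF axis was followed through 8 genes taken by symbol from the 34638 genes of a lung RNA-seq table. *Il17a* and *Il17f* encode the founding IL-17 cytokines, *Il23a* the specific subunit of IL-23, *Il22* a companion cytokine of type 17 lymphocytes, and *Csf3* the granulocyte colony-stimulating factor G-CSF. *Il17ra* and *Il17rc* encode the receptor pair for IL-17A and IL-17F, and *Csf3r* encodes the G-CSF receptor. Lungs came from C57BL/6 mice of wild-type genotype (WT), 3 in each of 3 groups labelled PBS, IL-33 and IL-33+LM8. PBS mice were challenged with phosphate buffered saline by the intratracheal route. IL-33 mice received 0.5 µg of recombinant mouse IL-33 at each challenge, by that route, on days 0 to 3. IL-33+LM8 mice received the same challenges and, before them, LM8 at 10 mg/kg into the peritoneum. LM8 is an inhibitor of MyD88, the adaptor through which receptors of the IL-1 family, that of IL-33 included, and most Toll-like receptors signal. The study's methods describe PBS and IL-33 mice of this model as females of 6 to 8 weeks. Their lungs were taken on day 4, 24 h after the last challenge. That the sequenced mice were these mice was assumed. The sex, age and collection time of the IL-33+LM8 mice, and whether PBS and IL-33 mice received an injection of vehicle, are not given in the sources used here.

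IL-23 maintains type 17 lymphocytes, among them γδ T cells, which secrete IL-17A, IL-17F and IL-22 at barrier surfaces such as the airway. IL-17A and IL-17F act mainly on epithelial and stromal cells and induce neutrophil-attracting chemokines, antimicrobial proteins and G-CSF. G-CSF in turn drives the production and release of neutrophils, and the neutrophil lineage is the main carrier of its receptor, although monocytes express it too. This arm is known for neutrophil-rich airway inflammation, whereas IL-33 is known for the type 2 arm with eosinophils.

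The counts of all genes summed to between 53877663 and 90607218 per library. The defining markers of lung epithelium were high in every mouse, with summed FPKM of *Sftpc*, *Scgb1a1*, *Ager* and *Foxj1* between 31766 and 34538 in PBS, 13585 and 14787 in IL-33 and 26202 and 28436 in IL-33+LM8 lungs. FPKM scales each count to the length of its gene and to the library size, so levels of different genes are compared below only in FPKM. Fold changes are log2 differences of counts per library, tested with edgeR's quasi-likelihood test on the counts. A gene was called where the Benjamini-Hochberg adjusted p over all genes tested was under 0.05 and the log2 fold change was at least 1 in size.

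Of the 8 genes, 1 (*Csf3r*) was called in IL-33 against PBS lungs, where 14% of 24887 tested genes were called. By edgeR and by DESeq2 alike 0 were called in IL-33+LM8 versus IL-33, where edgeR called 4.13% of 24890 genes, and 2 of the 8 had an unadjusted p under 0.05. *Csf3r* was again the 1 gene called in IL-33+LM8 against PBS, where 5.83% of 24877 were called. Without the minimum fold change, 3 of the 8 genes passed in the first comparison (37.3% of all tested), 2 in the second (16.6%) and 2 in the third (18.3%). FPKM ranges did not overlap for 4, 2 and 3 of the 8 genes, against 50.9%, 34.7% and 38.1% of all tested genes. The shares are over tested genes, whereas only 6 of the 8 genes were tested. On either base the counts are too small to set the 8 genes apart from the rest. *Il17f* and *Il22*, with summed counts of 8 each over the 9 mice, fell short of the minimum of 30 and were not tested.

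The promoters of *Csf3r*, the called gene, and of *Il17a*, the ligand that names the axis, are shown because each holds a match to a motif of a factor active in this axis. Both run from 250 bases before to 50 bases after the annotated start, as RefSeq gives them on GRCm38.p6. The *Csf3r* window is chr4:126024409-126024708 on the plus strand, with capitals marking an NF-kB match on the opposite strand, and the *Il17a* window is chr1:20730655-20730954 on the plus strand, with capitals marking an AP-1 match on the same strand.
Csf3r promoter: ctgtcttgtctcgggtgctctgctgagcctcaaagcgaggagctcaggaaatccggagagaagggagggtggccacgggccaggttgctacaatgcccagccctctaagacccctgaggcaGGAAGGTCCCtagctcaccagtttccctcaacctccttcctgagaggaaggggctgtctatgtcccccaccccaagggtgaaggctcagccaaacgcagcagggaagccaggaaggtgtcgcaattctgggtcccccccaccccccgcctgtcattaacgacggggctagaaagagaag
Il17a promoter: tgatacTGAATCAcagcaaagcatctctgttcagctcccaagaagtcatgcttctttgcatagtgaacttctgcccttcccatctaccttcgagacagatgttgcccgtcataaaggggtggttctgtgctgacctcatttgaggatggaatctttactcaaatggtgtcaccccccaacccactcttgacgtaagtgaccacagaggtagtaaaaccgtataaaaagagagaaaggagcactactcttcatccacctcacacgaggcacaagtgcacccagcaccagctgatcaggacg

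The *Csf3r* match begins at position -129 and the *Il17a* match at position -244, counted from the start site. Windows of the same length held the NF-kB motif in 8.46% and the AP-1 motif (TGANTCA) in 7.81% of 32851 promoters, searched on both strands. Promoters of *Il17f*, *Il17rc* and *Il22* were searched as well, which makes 5 of the 8 genes. No promoter of the 5 held the C/EBP motif TTGCNNAA (10.8% of all promoters), the STAT motif TTCNNNGAA (8.30%), the ROR motif TAGGTCA (2.61%) or the CK-1 motif GAGATTCC (0.904%). NF-kB was matched only in *Csf3r* and AP-1 only in *Il17a*. These letters describe the windows, and binding was not measured.

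To examine the ligands, the counts of each mouse were read directly, since all 5 genes were close to the limit of detection. *Il17a*, on chromosome 1, had counts of 0 in all 3 PBS mice, of 0, 12 and 4 in IL-33 mice 1, 2 and 3, and of 0, 14 and 20 in IL-33+LM8 mice 1, 2 and 3. Reads were therefore seen in 2 of 3 mice of each challenged group, and each group also held a mouse at 0. A count of 0 allows up to 3 counts per library, and 1 of the 3 IL-33 mice stood at 4, close to that floor. *Il17a* was not called (edgeR's quasi-likelihood test, Benjamini-Hochberg adjusted p 0.128 for IL-33 against PBS, 0.121 for IL-33+LM8 against PBS and 0.832 between the challenged groups).

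*Il17f*, the neighbour of *Il17a* on chromosome 1, had a count of 4 in IL-33 mouse 3 and of 4 in IL-33+LM8 mouse 3. It was 0 in the other 7 mice, so no difference was detectable at this depth. *Il22*, on chromosome 10, had a count of 8 in PBS mouse 1 and of 0 in the other 8 mice. Of the 1080 stretches of 31 bases in its transcripts, 53.6% also occur in the near-identical gene *Il22b* (*Iltifb* in GENCODE), so the division of reads between the pair is uncertain. *Il22b* itself had a count of 4 in PBS mouse 2 and in IL-33 mouse 2.

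*Il23a*, on chromosome 10, was the 1 ligand with reads in every challenged lung. Its counts were 12, 6 and 0 in PBS mice, 14, 12 and 14 in IL-33 mice and 26, 24 and 19 in IL-33+LM8 mice. In FPKM it reached 0.0394 ± 0.0399 in PBS, 0.0946 ± 0.0136 in IL-33 and 0.141 ± 0.0499 in IL-33+LM8 lungs (mean ± SD, n = 3). Every challenged mouse lay above every PBS mouse, while the challenged groups overlapped in FPKM. The log2 fold changes were 1.22 ± 1.17 for IL-33 against PBS, 0.62 ± 0.53 for IL-33+LM8 versus IL-33 and 1.85 ± 1.11 for IL-33+LM8 against PBS (± SE). Their adjusted p were 0.485, 0.522 and 0.309 by edgeR's quasi-likelihood test, so the gene was not called.

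*Csf3*, on chromosome 11, had a count of 7 in PBS mouse 3, of 8 in IL-33 mouse 1 and of 29 in IL-33+LM8 mouse 3, and of 0 in the other 6 mice. Each group thus had 1 lung with reads, and the groups overlapped. *Csf3* was not called (edgeR's quasi-likelihood test, adjusted p 0.923, 0.746 and 0.636 in the order used above), and its fitted direction turned without IL-33 mouse 1, PBS mouse 1 or PBS mouse 2 in IL-33 against PBS and without IL-33+LM8 mouse 3 in the other comparisons. The 3 mice with *Csf3* reads also had the highest counts of *Cebpb* and *Cebpd*, genes of IL-17 receptor signalling, within their groups. The counts of *Cebpd* were 12148, 7510 and 15048 in these mice and 2016 to 3392 in the other 6, and the part of this in the *Csf3* reads was not tested. The same 3 mice were alike over 15659 genes, where their deviations from the group means correlated at 0.75 to 0.80. Their shared pattern was thus not limited to *Csf3*, *Cebpb* and *Cebpd*. Counts of 4 were recorded for 9640 gene and mouse pairs, against 4618 for counts of 3 and 3377 for counts of 5, and a like excess stood at 8 and 12. How many counts 1 read pair contributed is not given in the sources used here, so the low ligand counts may rest on fewer fragments than their numbers.

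**Figure D1:**
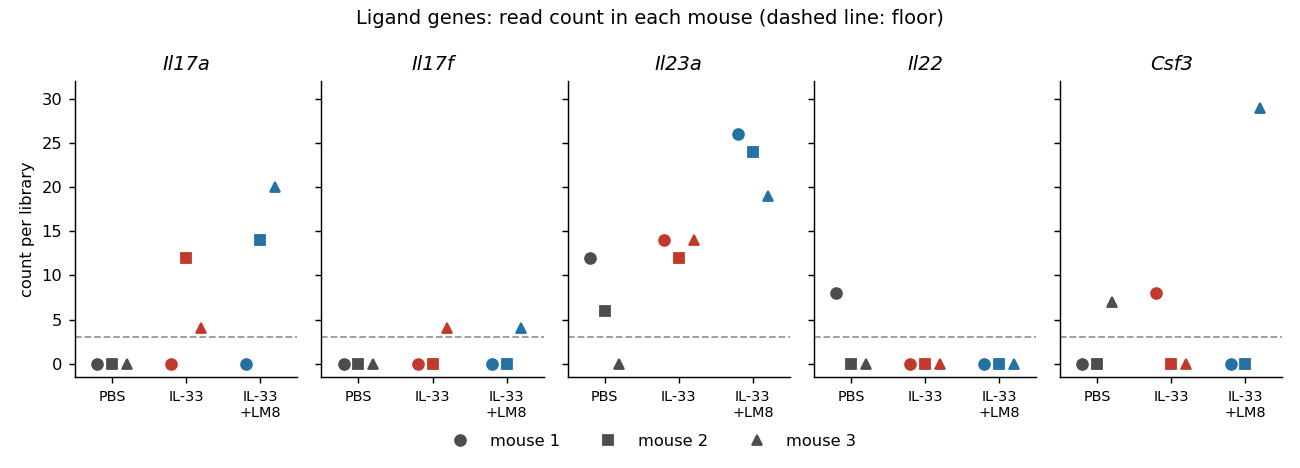
Read counts of the 5 ligand genes in each mouse (y axis, counts per library; x axis, group; circle, square and triangle are mice 1, 2 and 3; the dashed line is the floor of 3 counts). No ligand exceeded 29 counts in any lung, and *Il23a* alone lay above the floor in all 6 challenged mice.

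Compared with the ligands, the receptors were well measured, with counts of 1033 or more in every lung. *Il17rc* was the highest of the 3 in PBS lungs at 10.4 ± 0.518 FPKM, followed by *Csf3r* at 4.79 ± 0.397 and *Il17ra* at 4.09 ± 0.124 (mean ± SD, n = 3). The order changed in IL-33 lungs, where *Csf3r* reached 18.7 ± 2.62 FPKM, and *Il17rc* (8.39 ± 0.880) and *Il17ra* (8.05 ± 0.791) differed by less than their SDs. In IL-33+LM8 lungs the order was *Csf3r* (33.7 ± 6.80), *Il17rc* (10.6 ± 0.587) and *Il17ra* (7.93 ± 1.07).

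*Il17ra*, on chromosome 6, encodes the receptor subunit that IL-17A, IL-17F, IL-17C and IL-25 share. Its FPKM was 4.18, 3.95 and 4.14 in PBS mice, 8.31, 7.16 and 8.67 in IL-33 mice and 9.09, 6.97 and 7.72 in IL-33+LM8 mice. All 6 challenged mice lay above all PBS mice, and the challenged groups overlapped. The log2 fold change was 0.98 ± 0.09 (SE) for IL-33 against PBS and 0.98 ± 0.10 for IL-33+LM8 against PBS. Both passed at the adjusted p of 0.000133 and 0.00074 (edgeR's quasi-likelihood test) but stood just under the minimum fold. Leaving out PBS mouse 1, PBS mouse 3 or IL-33 mouse 2 took the first to 1.01, 1.00 and 1.07, and leaving out PBS mouse 1, IL-33+LM8 mouse 2 or IL-33+LM8 mouse 3 took the second to 1.01, 1.06 and 1.00, at or past the minimum. Between the challenged groups the log2 difference was -0.0084, with a 95% interval from -0.271 to 0.254 (adjusted p 0.978, edgeR's quasi-likelihood test).

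*Il17rc*, also on chromosome 6, encodes the partner chain that binds IL-17A and IL-17F together with the shared subunit. Its FPKM was 9.83, 10.4 and 10.9 in PBS mice, 8.13, 9.38 and 7.68 in IL-33 mice and 9.88, 10.9 and 10.9 in IL-33+LM8 mice. The IL-33 mice lay below all mice of the other groups, and PBS and IL-33+LM8 mice overlapped. The log2 fold change was -0.30 ± 0.09 (SE) for IL-33 against PBS (adjusted p 0.0352) and 0.34 ± 0.10 for IL-33+LM8 versus IL-33 (adjusted p 0.0495), both by edgeR's quasi-likelihood test and both far under the minimum fold. These were borderline, since leaving out 1 mouse at a time brought the adjusted p to 0.05 or above in 5 of 6 fits of each comparison, with ranges of 0.017 to 0.125 and 0.0361 to 0.163. With the replicate number as a block the adjusted p was 0.0785 and 0.0822 by edgeR, over the threshold in both. Between IL-33+LM8 and PBS the log2 difference was 0.06, with a 95% interval from -0.137 to 0.252. The subunits of the IL-17 receptor thus showed unlike patterns over the 9 mice, with a Pearson correlation of -0.48 on the log2(FPKM + 0.1) scale.

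*Csf3r*, on chromosome 4, rose to 3.91 ± 0.635 (SD) times the PBS level in IL-33 lungs. FPKM was 4.39, 4.81 and 5.18 in PBS mice, 18.7, 21.4 and 16.1 in IL-33 mice and 40.4, 26.8 and 33.8 in IL-33+LM8 mice. The groups formed separate steps without overlap. The log2 fold change was 1.97 ± 0.11 (SE) for IL-33 against PBS (adjusted p 1.77e-05) and 2.84 ± 0.15 for IL-33+LM8 against PBS (adjusted p 5.79e-05), both called by edgeR's quasi-likelihood test. From IL-33 to IL-33+LM8 it was higher at 1.80 ± 0.441 times the IL-33 level, a log2 difference of 0.86 ± 0.16 with a 95% interval from 0.491 to 1.23 (edgeR's quasi-likelihood test, adjusted p 0.00934), which passed at the adjusted p but not at the minimum fold. Leaving out each mouse in turn kept that adjusted p between 0.00445 and 0.0395 and the log2 difference between 0.71 and 1.00. Of the 3657 stretches of 31 bases in *Csf3r* transcripts, 23.1% also occur in transcripts of other genes, and how reads in them were assigned was not tested. With 3 mice against 3, the two-sided exact permutation p of 1 gene cannot fall under 0.1, which is the value for each comparison without overlap. These are whole lungs, in which fewer cells of a type and less RNA per cell cannot be told apart.

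**Figure D2:**
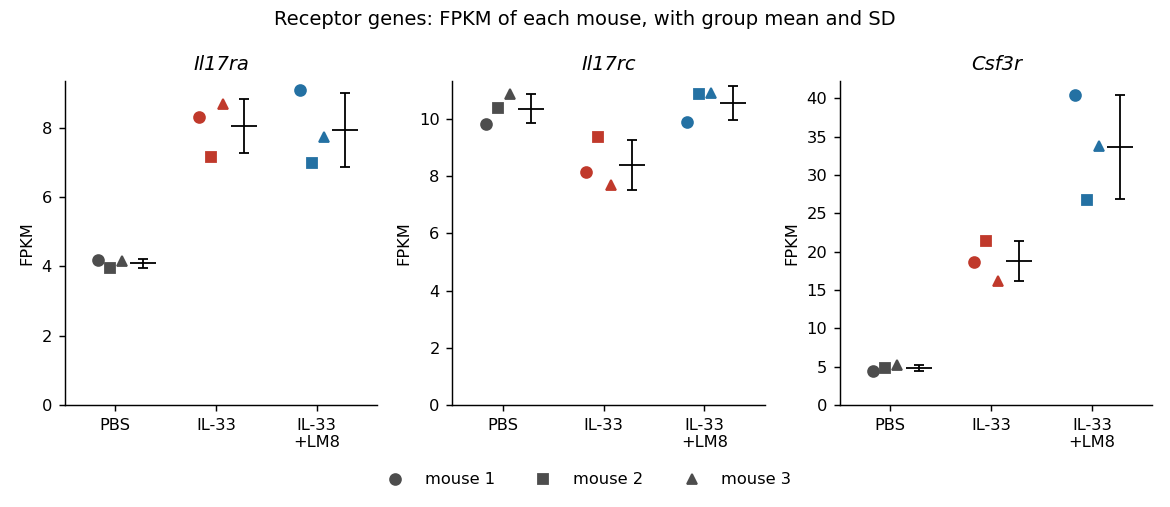
FPKM of the receptor genes in each mouse (y axis from 0; x axis, group; circle, square and triangle are mice 1, 2 and 3; the bar is the mean with SD, n = 3). *Csf3r* forms 3 separate steps, *Il17ra* lies at about 4 FPKM in PBS mice and between 6.97 and 9.09 in challenged mice, and *Il17rc* is lowest in IL-33 mice.

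**Figure D3:**
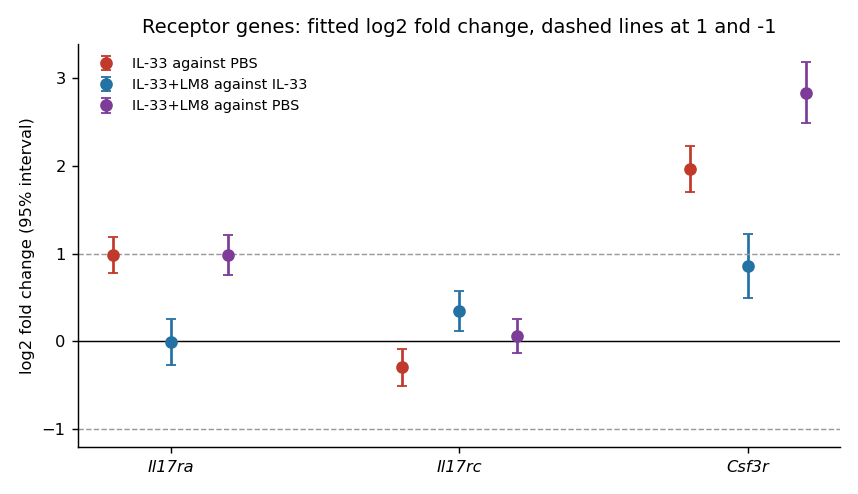
Fitted log2 fold changes of the receptor genes with 95% intervals for IL-33 against PBS (red), IL-33+LM8 versus IL-33 (blue) and IL-33+LM8 against PBS (purple); dashed lines mark 1 and -1. The blue interval includes 0 for *Il17ra* (-0.271 to 0.254) and lies above 0 for *Csf3r* (0.491 to 1.23).

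To set *Csf3r* beside the cells that carry it, 8 neutrophil markers were read in the same lungs. Their summed FPKM ran from 21.9 to 29.4 in PBS, from 171 to 192 in IL-33 and from 853 to 989 in IL-33+LM8 mice, and in PBS lungs *Stfa2l1* alone was at 0 in every mouse. In IL-33 against PBS 5 of 8 were called higher (8.8% of all genes), in IL-33+LM8 versus IL-33 6 of 8 (1.15%) and in IL-33+LM8 against PBS 8 of 8 (4.43%). *S100a9*, a subunit of calprotectin, had a mean FPKM of 15.0 in PBS, 47.9 in IL-33 and 509 in IL-33+LM8 lungs. *Ly6g*, the surface marker used to identify mouse neutrophils, had 0.0766, 0.623 and 10.3, and *Retnlg*, a resistin-like gene of granulocytes, had 5.01, 106 and 180. The log2 fold change of *Csf3r* between the challenged groups, 0.86 ± 0.16, stood beside 3.42 for *S100a9*, 4.01 for *Ly6g* and 0.78 for *Retnlg*, and the difference between genes was not tested. Whether *Csf3r* changed with neutrophil number was not tested.

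**Figure D4:**
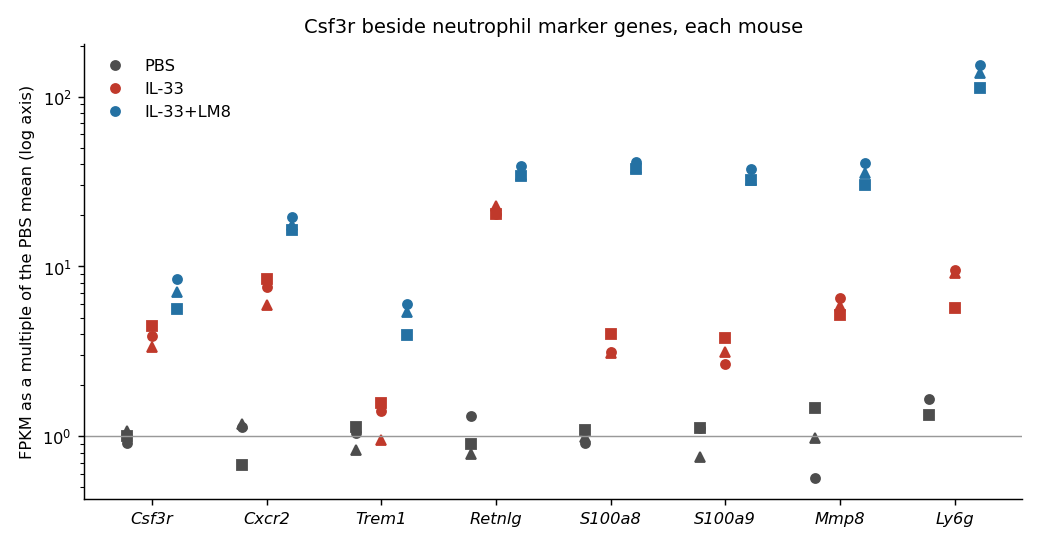
FPKM of *Csf3r* and 7 neutrophil markers in each mouse as a multiple of the PBS mean (log axis; grey PBS, red IL-33, blue IL-33+LM8; circle, square and triangle are mice 1, 2 and 3; the PBS mouse with 0 *Ly6g* counts is not drawn). Mean FPKM went from 47.9 in IL-33 to 509 in IL-33+LM8 lungs for *S100a9* and from 18.7 to 33.7 for *Csf3r*.

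Monocytes and eosinophils were read as well, since monocytes also carry the receptor. Summed FPKM of 5 monocyte markers was 60.3 to 84.6 in PBS, 232 to 237 in IL-33 and 117 to 128 in IL-33+LM8 mice. In IL-33 against PBS 3 of 5 were called higher (8.8% of all genes). Between the challenged groups 1 was called higher (1.15%), *F13a1* (clotting factor XIII subunit A, log2 fold change 2.40), and 1 lower (2.99%), *Fn1* (fibronectin, -1.24). *Fn1* made up most of the sum, with a mean FPKM of 58.0, 192 and 80.9 in PBS, IL-33 and IL-33+LM8 lungs. The lower sum in IL-33+LM8 than in IL-33 mice therefore mostly reflected that gene. From IL-33 to IL-33+LM8 lungs *Ccr2* went from 26.75 to 15.45 FPKM and *Vcan* from 3.243 to 3.059. *Ly6c2* went from 11.04 to 13.99 and *F13a1* from 1.434 to 7.512. At the adjusted p alone 2 of the 5 were higher and 2 lower between the challenged groups (16.6% of all genes in either direction). *Ccr2*, the chemokine receptor of inflammatory monocytes, had a log2 fold change of 2.72 in IL-33 against PBS. Of 6 eosinophil markers, 5 were called higher in IL-33 against PBS (8.8% of all genes) and 6 lower in IL-33+LM8 versus IL-33 (2.99%). In IL-33+LM8 against PBS 3 were called higher (*Ccr3*, *Prg2* and *Epx*) and 1 lower (*Ear1*, log2 fold change -1.78). There 5.83% of all genes were called in either direction. The summed FPKM of the 6 was 21.95 to 26.2, 48.5 to 51.2 and 12.3 to 13.1 in PBS, IL-33 and IL-33+LM8 mice. *Ear1* made up most of this sum in PBS lungs, with a mean FPKM of 19.43, so the PBS sum mostly reflected that gene. The part of monocytes and eosinophils in the values of *Csf3r* was not tested.

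Over the 14672 genes whose mean FPKM was 1 or more, those whose log2(FPKM + 0.1) followed *Csf3r* most closely over the 9 mice were *Cd244a* (Pearson r 0.998), *Trim30b* (0.991), *Cxcr2* (0.989), *Il1b* (0.984) and *Tlr13* (0.984). *Cxcr2* encodes the neutrophil receptor for CXC chemokines, and its mean FPKM was 1.17, 8.53 and 20.98 in PBS, IL-33 and IL-33+LM8 lungs. *Cd244a*, a receptor of natural killer and other leukocytes, had 1.25, 2.35 and 3.29. The genes closest to *Il17ra* were *Ly6i* (0.993), *Oas3* (0.992), *Itgal* (0.991), an immunoglobulin kappa variable gene (0.991) and *Pirb* (0.990), of which *Itgal* encodes the integrin chain CD11a of leukocytes and *Pirb* an inhibitory receptor of myeloid cells. *Itgal* stood at 9.10, 21.4 and 19.1 FPKM and *Pirb* at 5.09, 19.9 and 18.6. Those closest to *Il17rc* were *Ufl1* (0.961), *Peli3* (0.957), *Drc7* (0.952), *Zfp106* (0.948) and *mt-Tk* (0.942). *Il17ra* and *Csf3r* themselves had r = 0.92, and *Il17rc* and *Csf3r* r = -0.11. These correlations rest on 9 mice in 3 groups and describe shared group patterns.

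The other IL-17 family genes were led by *Il17rb*, which encodes the chain that joins the shared subunit to receive IL-25. *Il17rb* was 0.625, 0.441 and 0.644 FPKM in PBS mice, 23.5, 21.4 and 24.8 in IL-33 mice and 7.03, 6.90 and 7.03 in IL-33+LM8 mice. The groups did not overlap, with the IL-33+LM8 mice between the others. It rose by a log2 fold change of 5.33 ± 0.16 (SE) with IL-33 (adjusted p 2.12e-06) and was lower by -1.72 ± 0.07 in IL-33+LM8 than in IL-33 lungs (adjusted p 5.69e-05, edgeR's quasi-likelihood test). *Il17rd*, a chain that dampens several receptor pathways, fell with IL-33 (log2 fold change -1.01, where 5.16% of all genes were called lower) but dropped under the minimum fold without PBS mouse 1, PBS mouse 3 or IL-33 mouse 2 (-0.99, -0.96 and -0.96), and *Il17re*, the IL-17C receptor chain, was not called at 4.41, 4.18 and 3.25 FPKM. Of 5 tested genes in this list 1 was thus higher (8.8% of all genes) and 1 lower in IL-33 against PBS. In IL-33+LM8 versus IL-33 1 was lower (2.99%). The medians of the list were -0.07 and -0.35, against -0.010 and -0.015 over all genes tested. *Il17b* was too low to test, and *Il25* was not analysed here.

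Upstream of the ligands, 6 cytokines known to induce or expand type 17 lymphocytes were read. In IL-33 against PBS lungs 3 of the 6 were called higher (8.8% of all genes), with a list median of 1.56. The count was 4 by DESeq2 and 5 without PBS mouse 2. *Il6* had FPKM of 0.141, 0.150 and 0.127 in PBS, 2.51, 2.03 and 3.27 in IL-33 and 0.909, 1.10 and 1.33 in IL-33+LM8 mice. It rose with IL-33 (log2 fold change 4.16 ± 0.27 SE) and was lower in IL-33+LM8 than in IL-33 lungs (-1.20, and -0.999 at an adjusted p of 0.0483 by edgeR without IL-33 mouse 3, just under the minimum). *Il1b*, an inflammatory cytokine that signals through MyD88, rose from a mean FPKM of 2.70 to 9.51 with IL-33 and was higher again at 20.9 in IL-33+LM8 lungs (log2 fold changes 1.82 and 1.15). *Tgfb1*, which in mice is needed with IL-6 to start the type 17 program, stood at 13.5, 33.1 and 21.7 FPKM and was called only in the first comparison (1.297). Between the challenged groups 2 of the 6 were called higher (1.15% of all genes) and 2 lower (2.99%). *Il21*, called lower, had counts of 22, 26 and 10 in IL-33 and 0 in all IL-33+LM8 mice. That call was lost without IL-33 mouse 1 or IL-33 mouse 2 and with the replicate block (edgeR, adjusted p 0.0577, 0.0619 and 0.106). It was also lost by limma on log2(FPKM + 1) and log2(FPKM + 0.1), at an adjusted p of 0.183 and 0.0889, and DESeq2 gave no adjusted p.

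Receptor partners of IL-23 and IL-22 were mostly not called. *Il12rb1*, the receptor chain shared by IL-12 and IL-23, rose with IL-33 (0.401 to 1.62 FPKM, log2 fold change 2.01). *Il22ra2*, which encodes a soluble binding protein that neutralises IL-22, had counts of 44, 65 and 68 in PBS, 0, 8 and 6 in IL-33 and 61, 17 and 50 in IL-33+LM8 mice, and fell with IL-33 (log2 fold change -3.44 ± 0.93 SE, edgeR's quasi-likelihood test, adjusted p 0.0245). Leaving out any 1 PBS mouse or IL-33 mouse 3 took that adjusted p over the threshold, to 0.0532, 0.072, 0.0505 and 0.0644 by edgeR. *Il10rb*, the other chain of the IL-22 receptor, was level at 18.0, 19.2 and 18.1 FPKM and was not called. Of 6 tested genes 1 was called higher (8.8% of all genes) and 1 lower (5.16%) in IL-33 against PBS. In IL-33+LM8 versus IL-33 edgeR called 0 of them, 1 had an unadjusted p under 0.05, and DESeq2 called 1 higher, *Il22ra2*. The list medians were -0.05 and 0.06.

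In the type 17 lymphocyte program, 3 of 10 genes were called higher in IL-33 against PBS lungs (8.8% of all genes). *Irf4*, the gene of a factor in many activated lymphocytes and myeloid cells, rose with IL-33 (mean FPKM 1.80 to 13.8, log2 fold change 2.95) and stood at 8.25 in IL-33+LM8 lungs. *Ccr6*, the homing receptor for CCL20, had 0.594, 2.14 and 1.06 FPKM and rose with IL-33 (1.84). *Tmem176b* and *Tmem176a* were the most abundant, at 99.1 and 57.7 FPKM in PBS and 160 and 93.8 in IL-33 lungs, under the minimum fold. The list medians were 0.66 in that comparison and -0.08 in IL-33+LM8 versus IL-33. In the latter edgeR and DESeq2 called 0 of the 10, and 5 had an unadjusted p under 0.05. *Ccr6* passed there without IL-33 mouse 1, IL-33 mouse 2 or IL-33+LM8 mouse 3 (-1.01, -1.02 and -1.08).

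Of 10 γδ T cell markers, cells known to secrete IL-17A in lung, 3 were called higher in IL-33 against PBS (8.8% of all genes). In IL-33+LM8 versus IL-33 1 was called lower (2.99%). The latter count was 0 without IL-33 mouse 1 or IL-33 mouse 3 and with the replicate block, 2 without IL-33 mouse 2 or IL-33+LM8 mouse 1, 2 by DESeq2, and at most 3 in any other fit with the minimum fold. Their summed FPKM was 42.0 to 47.1 in PBS, 53.4 to 60.9 in IL-33 and 44.7 to 54.5 in IL-33+LM8 mice. *Sox13*, which lung cells other than T cells also express, made up most of this sum in PBS lungs, with 34.7 FPKM. *Trgc4* had 1.05, 16.0 and 8.99 FPKM and *Trdv4* 1.13, 4.77 and 1.76, with log2 fold changes of 3.92 and 2.05 in IL-33 against PBS. In that comparison *Blk* was also called higher (1.89). *Trdc*, *Trgc1*, *Trgc2*, *Trgv6*, *Scart1* and *Scart2* were not called there, with log2 fold changes from 0.25 (*Trdc*) to 1.12 (*Trgv6*). *Sox13* was lower with IL-33 (-0.79), under the minimum fold, so the called genes did not stand for all 10 markers. Of 8 markers of T cells as a whole 2 were called higher (8.8% of all genes), *Trbc1* (1.29) and *Trbc2* (1.03). *Trbc2* dropped under the minimum without PBS mouse 3 (0.95) or IL-33 mouse 3 (0.90). Between the challenged groups edgeR and DESeq2 called 0 of the 8, and 3 had an unadjusted p under 0.05. No marker of either list was at 0 in all mice of a group, and their part in the *Il17a* counts was not tested.

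**Figure D5:**
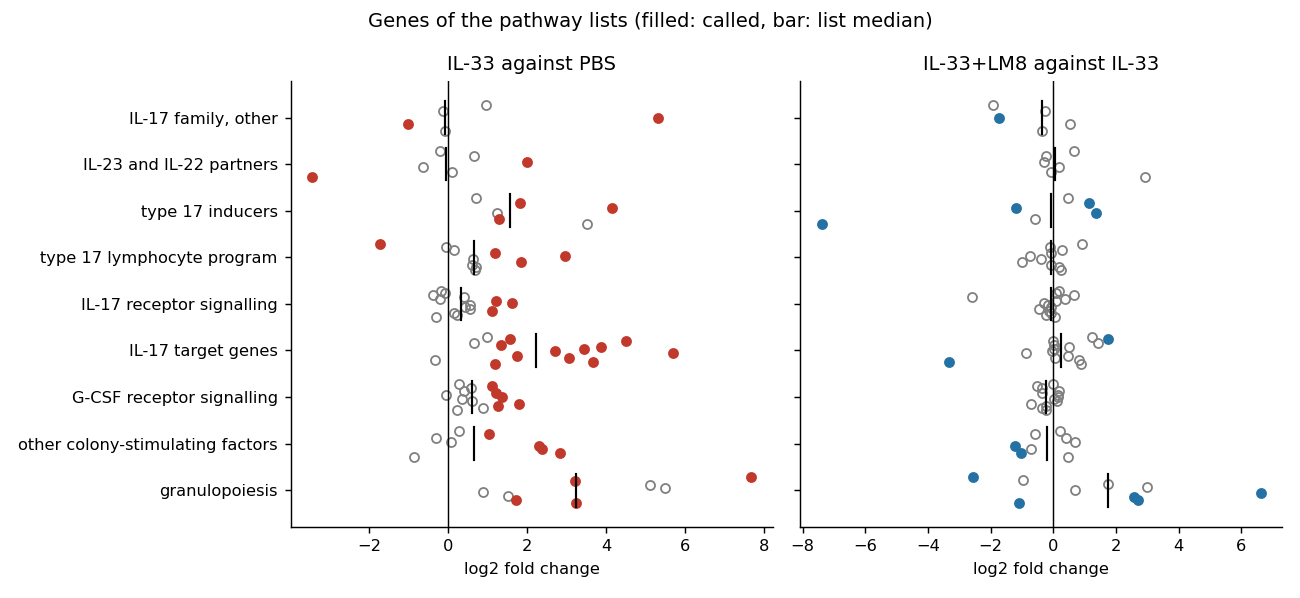
Log2 fold changes of the genes of 9 pathway lists (each point a gene; filled where called; vertical bars are list medians) in IL-33 against PBS on the left and IL-33+LM8 versus IL-33 on the right. IL-17 target genes lie to the right in the first panel, with 11 of 14 called, and around 0 in the second, with a median of 0.25.

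Downstream of the IL-17 receptor, 11 of 14 target genes were called higher and 0 lower in IL-33 against PBS lungs, where 8.8% of all genes were called higher, and their median log2 fold change was 2.23. *Saa3*, an acute-phase protein, rose from a mean FPKM of 0.419 to 21.8 (log2 fold change 5.70 ± 0.35 SE). *Cxcl3*, a neutrophil-attracting chemokine, rose from 0.0484 to 1.16 (4.49 ± 0.54). *Lcn2*, which encodes the iron-sequestering protein lipocalin-2, had FPKM of 18.7, 22.7 and 20.1 in PBS and 134, 148 and 123 in IL-33 mice (2.72 ± 0.09). *Pigr*, the carrier of IgA across epithelium, rose from 20.95 to 69.4 (1.73 ± 0.07). Whether IL-17 took part in the changes of these listed genes was not tested.

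Between the challenged groups the median of the target list was 0.25, and 1 of 14 genes was called higher (1.15% of all genes) and 1 lower (2.99%). DESeq2, and edgeR without IL-33+LM8 mouse 1, called 3 higher and 1 lower. *Mmp13*, a collagenase, was the gene called lower, with FPKM of 0.413, 0.472 and 0.438 in PBS, 5.36, 5.37 and 6.20 in IL-33 and 0.465, 0.588 and 0.592 in IL-33+LM8 mice. PBS and IL-33+LM8 mice overlapped there, and the log2 fold change was -3.34 between the challenged groups. *Cxcl2*, a chemokine for neutrophils, was the gene called higher (mean FPKM 0.326, 1.00 and 3.40; log2 fold change 1.76). *Lcn2* stood at 125, 138 and 125 FPKM in IL-33+LM8 mice, *Pigr* at a mean of 94.2 and *Saa3* at 11.8, and *Saa3* passed as lower without IL-33+LM8 mouse 2 (-1.13). Against PBS, 11 of 14 were called higher in IL-33+LM8 lungs as well (4.43% of all genes). *Cxcl2* and *Mmp13* were named after their values were seen, and *Defb4* was not analysed here.

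Of 14 genes of IL-17 receptor signalling 3 were called higher in IL-33 against PBS (8.8% of all genes), with a median of 0.32. *Tnfaip3*, which encodes the NF-kB inhibitor A20, had a log2 fold change of 1.62, and *Zc3h12a*, which encodes the mRNA-degrading protein Regnase-1, had 1.21. Both are known as brakes on the pathway. *Cebpd* and *Usp25* were the most abundant, at 20.6 ± 18.8 and 14.5 ± 0.215 FPKM in PBS lungs, and neither was called. With LM8 added, edgeR and DESeq2 called 0 of 14 against IL-33 alone, 5 had an unadjusted p under 0.05, and the median was -0.07.

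Downstream of the G-CSF receptor, 5 of 13 signalling genes were called higher in IL-33 against PBS (8.8% of all genes). At the adjusted p alone 12 of 13 were higher, where 19.2% of all genes were. *Syk*, a tyrosine kinase of leukocytes, had a log2 fold change of 1.79, and *Socs3*, the feedback inhibitor of this receptor, had 1.37. *Jak1* and *Grb2*, the most abundant of the list, rose from 34.8 to 42.1 and from 24.6 to 45.4 FPKM, under the minimum fold. Against IL-33 alone, edgeR and DESeq2 called 0 of them in IL-33+LM8 lungs, 8 had an unadjusted p under 0.05, 6 of 13 were lower at the adjusted p alone (8.58% of all genes) and the median was -0.22, while *Csf3r* itself was higher. *Socs3* had a mean FPKM of 10.4, 26.6 and 28.9 in PBS, IL-33 and IL-33+LM8 lungs, and its log2 difference between the challenged groups was 0.14 (edgeR's quasi-likelihood test, adjusted p 0.518).

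Other colony-stimulating factors and receptors for them were read beside *Csf3r*. Of these 8 ligand and receptor genes 4 were called higher with IL-33 (8.8% of all genes), all of them receptor genes. In IL-33+LM8 versus IL-33 0 were called higher (1.15% of all genes) and 2 lower (2.99%). The list medians were 0.66 and -0.19 in the 2 comparisons. *Csf2rb* and *Csf2rb2*, the shared receptor chain for GM-CSF, IL-3 and IL-5 and its close copy, had log2 fold changes of 2.39 and 2.85 with IL-33 and of -0.70 and -1.02 between the challenged groups. The call of *Csf2rb2* there was lost without IL-33 mouse 1, IL-33 mouse 3 or IL-33+LM8 mouse 2 (-0.97, -0.998 and -0.98), and reads of so similar a pair may have been divided between them. *Csf1r*, the macrophage colony-stimulating factor receptor, had 21.7, 44.5 and 29.5 FPKM. *Kitl*, the stem cell factor, had 56.7, 30.8 and 42.1. The difference between these genes and *Csf3r* was not tested.

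Genes of granulopoiesis, which encode granule proteins and transcription factors, completed the axis. In IL-33 against PBS 4 of 8 tested genes were called higher (8.8% of all genes). In IL-33+LM8 versus IL-33 3 of 9 were higher (1.15%) and 2 lower (2.99%). In IL-33+LM8 against PBS 9 of 9 were higher (4.43%). The last count was 7 by DESeq2, which gave no adjusted p for *Ctsg*, and 4 to 7 with any 1 mouse left out. The medians were 3.23, 1.75 and 4.44, and 1.62, 1.75 and 2.29 with genes at 0 in a whole group set to the bound that the floor gives. *Ngp*, a granule protein of immature neutrophils, had FPKM of 2.20, 1.92 and 2.36 in PBS, 7.24, 8.20 and 5.88 in IL-33 and 41.9, 49.8 and 46.9 in IL-33+LM8 mice. The groups did not overlap, and *Ngp* rose in both steps (log2 fold changes 1.72 ± 0.18 and 2.71 ± 0.14 SE). *Ltf*, lactoferrin of secondary granules, was instead highest in IL-33 lungs, with 5.39, 50.5 and 23.4 FPKM, and its lower call in IL-33+LM8 lungs (-1.09) was lost without IL-33 mouse 1, IL-33 mouse 2, IL-33+LM8 mouse 1 or IL-33+LM8 mouse 3 (-1.09, -0.97, -0.87 and -1.10). *Cebpe*, the transcription factor of late granulocyte maturation in neutrophils and eosinophils, had 0.0328, 6.76 and 1.13 FPKM, and *Ctsg*, cathepsin G of primary granules, had counts of 7, 16 and 16 in IL-33+LM8 mice and 0 in the other 6. Leaving out any 1 mouse, or fitting the replicate number as a block (edgeR, adjusted p 0.178 against IL-33 and 0.0892 against PBS), ended both calls of *Ctsg*.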

How the data were processed

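RNA-seq of lungs from 9 mice was analysed. For each mouse, 1 table deposited by the authors gives the read count and the FPKM of every gene. The submitters' processing notes name HISAT2 2.0, StringTie 1.3.0, Bowtie 0.12.2 and mm10, with no role for each. Of 32643 gene IDs shared with GENCODE M21 only 578 have its GRCm38 coordinates, so table coordinates are not printed. Counts were tested with edgeR 4.0.16 (R 4.3.3) by the quasi-likelihood test with TMM normalization, with 6 mice in each fit, over genes whose summed count was at least 30 over the 9 mice. Fold multiples are ratios of mean FPKM, with errors propagated from the SDs. Intervals and floors cover counting error or the spread between these mice only. That replicates are separate mice is taken from the labels.

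Members and lists were chosen with earlier results of these data known. The genes named are the 8 members, up to 4 genes per list (the 2 most abundant and the 2 with the largest called changes) and the 5 genes most correlated with each receptor. Other genes are marked in the text, or belong to the marker lists. Alternatives were other size factors, DESeq2 1.42.0, limma 3.58.1 on log2(FPKM + 1) and log2(FPKM + 0.1), other filters and thresholds, the 9 mice fitted together, the replicate number as a block, and fits without each mouse. Dividing the counts by 4 was added after seeing the data. Deviations from the group means correlated positively in every same-numbered pair only for IL-33+LM8 and PBS mice (0.45, 0.50 and 0.75). They did not for IL-33 and PBS (-0.63, 0.51 and -0.44) or for IL-33+LM8 and IL-33 (-0.56, 0.39 and -0.60). Mice 1 and 2 of PBS and IL-33+LM8 also correlated across numbers (0.40 and 0.38). The highest values joined PBS mouse 3 with IL-33 mouse 1 (0.79) and IL-33 mouse 1 with IL-33+LM8 mouse 3 (0.80), so the numbers set no pairing apart. The fits were tested on simulated counts. Results of 1 gene of the lists are not reported here.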

Additional observations from a re-analysis of the deposited data

How the results depend on the processing

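The number of genes called depended most on the threshold and on the scale. Without a minimum fold change it was 9291 in IL-33 against PBS, 4143 in IL-33+LM8 versus IL-33 and 4544 in IL-33+LM8 against PBS, in place of 3474, 1029 and 1451, and 3, 2 and 2 of the 8 genes passed. With limma on log2(FPKM + 1), which shrinks the changes of low genes, it was 1735, 433 and 577. With each mouse left out it ran from 3093 to 3419, from 784 to 1030 and from 1103 to 1608, with 1 to 2, 0 to 0 and 1 to 2 of the 8 genes called, the second being *Il17ra*. With the replicate block it was 3020, 797 and 1644, and 1, 0 and 1 of the 8 genes were called as before. The block changed no other call of the 8 genes, but took the adjusted p of *Il17rc*, under the minimum fold in any case, from 0.0352 to 0.0785 in IL-33 against PBS and from 0.0495 to 0.0822 in IL-33+LM8 versus IL-33.

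Of 279 alternative values for the log2 fold changes of single genes, 259 kept direction and call, 11 passed the threshold that the main value missed and 9 changed sign. *Csf3* reversed in IL-33 against PBS without PBS replicate 1 (-0.21), PBS replicate 2 (-0.21) or IL-33 replicate 1 (-4.12), within a range of -4.12 to 4.41 over the mice left out. It also reversed without IL-33+LM8 replicate 3 in IL-33+LM8 versus IL-33 (-4.39; range -4.39 to 5.88) and against PBS (-4.14; range -4.14 to 5.94). *Il17ra* in IL-33+LM8 versus IL-33 turned positive without IL-33 replicate 1 (0.012), IL-33 replicate 3 (0.056), IL-33+LM8 replicate 2 (0.073) or IL-33+LM8 replicate 3 (0.010), within -0.11 to 0.073, and was near 0 throughout. Depth limits the 5 ligands, of which no library held more than 29 counts, and not the receptors.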

Other observations

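*Cebpb*, which encodes an effector of IL-17 receptor signalling, had counts that differed widely between mice of the same group. They were 49, 82 and 3943 in PBS mice, 4590, 91 and 108 in IL-33 mice and 68, 51 and 885 in IL-33+LM8 mice. The group means in FPKM, 11.8 ± 19.3, 15.6 ± 25.1 and 2.498 ± 3.25 (mean ± SD, n = 3), therefore carry no comparison, and the gene was not called. The highest counts fell in PBS mouse 3, IL-33 mouse 1 and IL-33+LM8 mouse 3, the mice that were also highest in *Cebpd* and that held all counts of *Csf3* (7, 8 and 29). Deviations of these mice from their group means correlated at 0.75 to 0.80 over 15659 genes, so their likeness was not limited to these genes. *Cebpb* was chosen after its values were seen.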
